A study of Mus musculus with 16 samples.

Results

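The contrast described here asks in which genes the effect of losing Foxp1 on mouse cortex differed between 7 days after birth (P7) and the day of birth (P0). For each gene it is the P7 difference, conditional knockout (cKO) minus control, minus the same difference at P0, on a log2 scale, and it is called the interaction. All 16 libraries of the series entered it, and the rule kept genes with at least 1 CPM (the count scaled to a common library total) in at least 4 libraries, which were 13444 of the 20841 genes of the deposited table. The 4 groups held 4 libraries each: P7 cKO, P7 control, P0 cKO and P0 control. Every library was made from cortex of the right hemisphere. Per the labels the deletion of Foxp1 was restricted to the forebrain. The labels give neither the Cre line that deleted the gene nor the alleles the controls carried, and they name no strain, sex or litter. They also do not say whether each library came from 1 animal, so the p-values measure the spread between these libraries. Library numbers below are those of the labels.

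Foxp1 encodes a forkhead transcription factor, best known as a repressor, that is made in cortical projection neurons while they migrate and mature. The first postnatal week in mouse cortex is the time when neurogenesis has largely ended, thalamic axons innervate layer 4, glia multiply and neurons build ion channels and synapses. A positive interaction therefore means that a transcript was higher in cKO cortex relative to control at P7 than it was at P0, and a negative one that it was relatively lower. Neither sign says alone at which age the genotypes differed, so both effects are given with it.

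Read totals, recovered from the table, were 9858296 to 15335738 at P7 and 17957490 to 18232943 at P0, so that 3 reads, the limit that a count of 0 allows, were 0.196 to 0.304 CPM at P7 and 0.165 to 0.167 CPM at P0 (counting error only). The P7 libraries were 75-base single-end reads from an Illumina NextSeq and the P0 libraries 50-base single-end reads from a BGISEQ-500, made by different centres. Age and sequencing platform are thus 1 split and cannot be told apart. Each genotype difference lies within 1 platform. The cortical neuron markers Neurod6, Tbr1 and Slc17a7 were detected in every library, with Tbr1 at 135 to 173 CPM in P7 cKO, 149.9 to 167 CPM in P7 control, 371 to 392 CPM in P0 cKO and 354 to 439 CPM in P0 control libraries. On the first principal component of the P0 libraries (45.6% of their variance), controls 2 and 6 stood apart at 38.4 and 20.01, and the other 6 libraries lay between -18.4 and -0.36. In P7 cortex the first component (25.1%) separated the genotypes, at 6.45 to 12.3 for cKO and -13.7 to -7.03 for control libraries. Of the tested genes, 200 had a listed value of 0 throughout P0, and 96.5% of those overlapped the body of another gene of the table, against 22.9% of all tested genes. For such a gene the interaction is its P7 difference alone.

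Foxp1 itself (chromosome 6, 98925338 to 99522721, minus strand, GRCm38) showed no detectable difference between the ages. Its level was 246, 219.9, 162 and 241 CPM in P7 cKO cortex, 539, 375, 399 and 462 CPM in P7 control cortex, 131, 166, 163 and 182 CPM in P0 cKO cortex and 273, 326, 340 and 364 CPM in P0 control cortex. At both ages all 4 cKO libraries lay below all 4 controls. The difference on the log2(CPM + 1) scale was -1.03 at P7 and -1.02 at P0, and the interaction was -0.02 (SE 0.19, limma adjusted p = 0.979). In mean CPM the cKO level was 0.489 of control at P7 and 0.493 of control at P0.

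The interaction was called in 101 genes, 0.751% of those tested, at a limma Benjamini-Hochberg adjusted p under 0.05. It was higher in 41 of them (0.305%) and lower in 60 (0.446%). These shares of all tested genes apply beside every count of called list members below. An unadjusted p under 0.05 was reached by 2095 genes (15.6% of those tested), and the median interaction over all tested genes was 0.02 with a median SE of 0.18. The genotype effect alone was called in 175 genes (1.30%) at P7, higher in cKO in 76 (0.565%) and lower in 99 (0.736%). At P0 it was called in 794 genes (5.91%), higher in 435 (3.24%) and lower in 359 (2.67%). These counts use a spread shared by both ages. The median within-group SD of the log2 level was 0.13 at P7 and 0.18 at P0. With weights per age the counts were 403 at P7 and 282 at P0. Which age had more calls thus depended on how the spread was modelled. With the shared spread only 7 of the 101 were called at both ages, 35 at P7 alone, 50 at P0 alone and 9 at neither. This split was not recounted with weights per age. The effects had opposite signs in 85 of the 101. Calling genes for a difference between the 2 effects itself favours opposite signs, and their share over all tested genes was not counted. Over all tested genes the P7 and P0 effects had a Pearson correlation of 0.10. In 50 of the 101 genes both effects were at least 0.2 in size and opposite in sign. A further 25 had the larger effect at P7 (8 higher, 17 lower), and 26 had it at P0 (10 higher, 16 lower). The smallest called interaction was 0.37 in size, and 31 were over 1. Scaling by medians of ratios called 109 genes, 29.4% of them higher against 40.6% with the deposited scale, and edgeR on recovered reads called 103, 30.1% of them higher. Without P0 control libraries 2 and 6 the count was 175, of which 78 were among the 101.

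**Figure D1:**
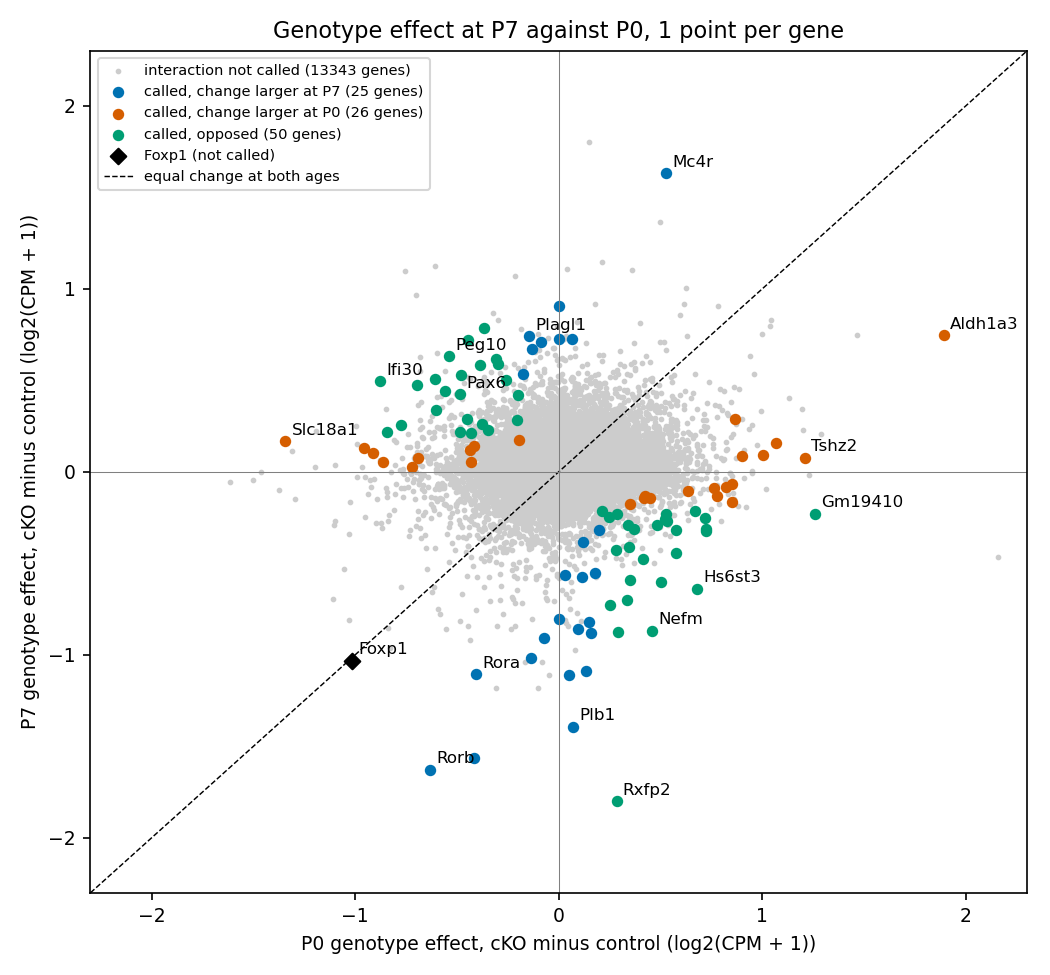
Genotype effect at P7 (vertical axis) against the effect at P0 (horizontal axis), both cKO minus control in log2(CPM + 1), with 1 point per tested gene. The 101 genes with a called interaction lie away from the dashed line of equal change. Of these, 85 lie in the quadrants where the effects are opposite in sign (50 with both at least 0.2 in size). Calling genes by the difference of the P7 and P0 effects itself favours both features. Foxp1 lies on the line near -1.03 and -1.02.

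Of the transcription factors that pattern layer 4, Rorb and Rora fell in cKO cortex at both ages and fell further at P7. Rorb (chromosome 19, 18930605 to 19111196, minus strand), a nuclear receptor that marks layer 4 neurons, had 82.8, 76.2, 82.2 and 67.9 CPM in P7 cKO, 261, 245, 224 and 232 CPM in P7 control, 24.9, 33.9, 42.6 and 33.4 CPM in P0 cKO and 41.4, 56.5, 61.1 and 50.5 CPM in P0 control libraries. At P7 the genotypes were far apart, and at P0 the highest cKO library lay just above the lowest control. The effect was -1.63 at P7 and -0.63 at P0, an interaction of -0.99 (SE 0.18, limma adjusted p = 0.013). Its relative Rora had 112, 126, 123 and 113 CPM in P7 cKO and 250.4, 259.5, 259 and 255 CPM in P7 control libraries. At P0 it had 12.5, 11.3, 12.5 and 13.7 CPM in cKO and 12.6, 19.7, 18.6 and 17.4 CPM in control libraries, which overlap through control 1. Its effects were -1.10 at P7 and -0.40 at P0, with an interaction of -0.70 (SE 0.15, limma adjusted p = 0.029) that lost its call in 8 of the 16 fits with 1 library left out, where the adjusted p went up to 0.073. These were the called genes among 18 tested members of the layer 4 and thalamus-receiving list, beside 0.446% of all tested genes called lower. The median interaction of the list was -0.10 (-0.16 without P0 controls 2 and 6, -0.06 without P0 cKO 3). The potassium channel gene Kcnh5 had an interaction of -0.87 that was not called (limma adjusted p = 0.066), with effects of -1.04 at P7 and -0.17 at P0.

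In the other layer lists 5 genes were called lower, beside 0.446% of all tested genes. In the upper-layer list Rorb was the called gene of 20 tested, and the median interaction was -0.08. The netrin receptor gene Unc5d of that list had -0.76, which was not called (limma adjusted p = 0.095). In the deep-layer list 2 of 25 tested members were called lower, Tshz2 and Hs3st4, with a median of 0.04. Of the 13 subplate genes 3 were called lower, Sorcs1, Cplx3 and Hs3st4, with a median of -0.08. Without P0 controls 2 and 6 the medians of these 3 lists were -0.02, 0.12 and 0.02. Cplx3, a complexin that regulates vesicle release, had 4.04, 4.70, 3.74 and 3.96 CPM in P7 cKO, 8.58, 8.74, 8.10 and 8.16 CPM in P7 control, 2.04, 0.997, 0.830 and 1.11 CPM in P0 cKO and 0.768, 0.997, 0.884 and 1.28 CPM in P0 control libraries. Its genotypes were separate at P7 and overlapped at P0, and the interaction was -1.04 (SE 0.21, limma adjusted p = 0.018). That call was lost with a pseudocount of 0.1 and in edgeR, with adjusted p up to 0.076. Tshz2, a zinc-finger transcription factor gene, was the opposite case: it had 161 to 245 CPM in P7 cKO, 175 to 233 CPM in P7 control, 122 to 182 CPM in P0 cKO and 48.1 to 84.1 CPM in P0 control libraries. It rose at P0 (1.21) and showed 0.08 at P7, an interaction of -1.13 that lost its call in 7 of 16 fits without 1 library. Exons of a gene on the other strand cover 67.5% of the Tshz2 exons, and strand use in counting is not given in the sources used here, so its reads cannot be told apart from that gene's.

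The interaction with the smallest adjusted p was that of Rxfp2 (chromosome 5, 150018675 to 150082184, plus strand), a G protein-coupled receptor of the relaxin family. It had 1.63, 2.77, 1.95 and 1.83 CPM in P7 cKO, 9.49, 8.40, 10.4 and 9.82 CPM in P7 control, 0.718, 0.830, 0.498 and 0.443 CPM in P0 cKO and 0.274, 0.498, 0.166 and 0.390 CPM in P0 control libraries. P7 control cortex was thus above every other library, and the P0 levels were a few times the 3-read limit or lower. The effect was -1.80 at P7 and 0.28 at P0 (limma adjusted p = 0.21), an interaction of -2.08 (SE 0.19, limma adjusted p = 1.4e-05). It was called in all 28 alternatives that tested the gene, with an adjusted p of at most 0.0027.

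The windows around the RefSeq gene starts of Rxfp2, Rorb and Hs6st3 (GRCm38.p6, 300 bases each, written in the gene's direction) are shown because these genes had the lowest adjusted p among receptors, the layer 4 list and heparan sulfate enzymes. Capitals mark the forkhead-type motif GTAAATA on either strand, which of the motifs searched had the highest share among called genes. The Rxfp2 window is chr5:150018425-150018724 on the plus strand, the Rorb window chr19:19001068-19001367 on the minus strand and the Hs6st3 window chr14:119138015-119138314 on the plus strand.
Rxfp2: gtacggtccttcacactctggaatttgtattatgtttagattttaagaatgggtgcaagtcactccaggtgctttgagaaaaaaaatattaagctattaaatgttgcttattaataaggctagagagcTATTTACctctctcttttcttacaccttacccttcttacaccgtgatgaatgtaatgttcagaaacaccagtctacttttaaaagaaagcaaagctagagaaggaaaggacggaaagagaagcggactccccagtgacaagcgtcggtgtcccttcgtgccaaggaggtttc
Rorb: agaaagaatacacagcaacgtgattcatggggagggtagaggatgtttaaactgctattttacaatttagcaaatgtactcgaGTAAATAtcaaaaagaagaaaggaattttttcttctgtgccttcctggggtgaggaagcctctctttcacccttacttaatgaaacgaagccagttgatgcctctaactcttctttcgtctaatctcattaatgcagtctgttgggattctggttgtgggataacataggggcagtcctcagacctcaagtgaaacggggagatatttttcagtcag
Hs6st3: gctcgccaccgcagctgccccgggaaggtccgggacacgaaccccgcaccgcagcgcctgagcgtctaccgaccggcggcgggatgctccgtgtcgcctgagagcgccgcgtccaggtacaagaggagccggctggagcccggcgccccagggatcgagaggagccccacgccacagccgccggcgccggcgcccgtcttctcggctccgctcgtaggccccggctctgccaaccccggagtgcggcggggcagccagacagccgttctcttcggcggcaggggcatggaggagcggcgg
The match begins 122 bases before the start in Rxfp2 and 167 bases before it in Rorb, and Rorb has 2 windows in the RefSeq table, of which this one holds it. It lies at an alternative start inside the gene, far from the outermost start given above. No match lies in the Hs6st3 window. The following forkhead-type motifs were searched on both strands of the 32851 windows of the table and of the 74 genes with a called interaction and a window. GTAAACA occurs in 3.65% of all windows, in 3.002% of the 10292 tested genes with a window and in 1 of the 74 genes (Hsd11b1, 1.35%). ATAAACA occurs in 4.60% of windows, 3.07% of tested genes and 1 called gene (Asic2, 1.35%). GTAAATA occurs in 3.04% of windows, 2.01% of tested genes and 4 called genes (Rxfp2, Rorb, Mgat5 and Wscd1), which are 5.41% of the 74. AATAAATA occurs in 2.56% of windows, 1.62% of tested genes and 2 called genes (Cpeb3 and Pax6, 2.70%). The shares were not tested. A match describes these letters and does not show that Foxp1 binds there.

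A further 3 receptors for peptide hormones were called, in both directions. Crhr1, a receptor for corticotropin-releasing hormone, had 17.9, 24.02, 14.9 and 17.2 CPM in P7 cKO, 23.6, 28.3, 27.6 and 21.7 CPM in P7 control, 18.4, 16.9, 15.6 and 16.04 CPM in P0 cKO and 9.65, 9.02, 12.2 and 13.3 CPM in P0 control libraries. Its cKO libraries lay above control at P0 and mostly below it at P7. The effects were -0.44 at P7 (limma adjusted p = 0.18) and 0.57 at P0, the interaction -1.02 (SE 0.20, limma adjusted p = 0.018). That call was lost without P0 cKO 3, P7 control 45 or P7 control 46 (adjusted p up to 0.059). Mc4r, the melanocortin receptor known for appetite control in the hypothalamus, had 11.2, 11.1, 10.2 and 13.3 CPM in P7 cKO, 3.16, 3.07, 2.51 and 3.32 CPM in P7 control, 17.4, 18.3, 21.1 and 17.0 CPM in P0 cKO and 17.4, 13.1, 13.4 and 7.80 CPM in P0 control libraries. Its level was lowest in P7 control cortex, separate from P7 cKO, and the genotypes overlapped at P0. It rose by 1.63 at P7 and was 0.53 higher at P0 (limma adjusted p = 0.064), an interaction of 1.10 (SE 0.23, limma adjusted p = 0.031) whose call was lost in 10 of 16 fits without 1 library. Crhr2, the second receptor of the corticotropin-releasing hormone family, was low, at 1.34 to 2.60 CPM in P7 cKO, 0.683 to 1.46 CPM in P7 control, 0.663 to 0.886 CPM in P0 cKO and 1.22 to 2.49 CPM in P0 control libraries. Its interaction of 1.11 (SE 0.25, limma adjusted p = 0.036) was lost in 11 of 16 such fits and, at 0.88, without P0 controls 2 and 6 (highest adjusted p over the alternatives 0.093). Of the 38 tested members of the peptide and monoamine receptor list, Mc4r was called higher and Rxfp2 and Crhr1 lower. Over all tested genes 0.305% were called higher and 0.446% lower. The median of the list was -0.07 (-0.14 without P0 control 5, 0.0035 without P0 cKO 3). The somatostatin receptor gene Sstr1 had -0.85, which was not called (limma adjusted p = 0.053).

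**Figure D2:**
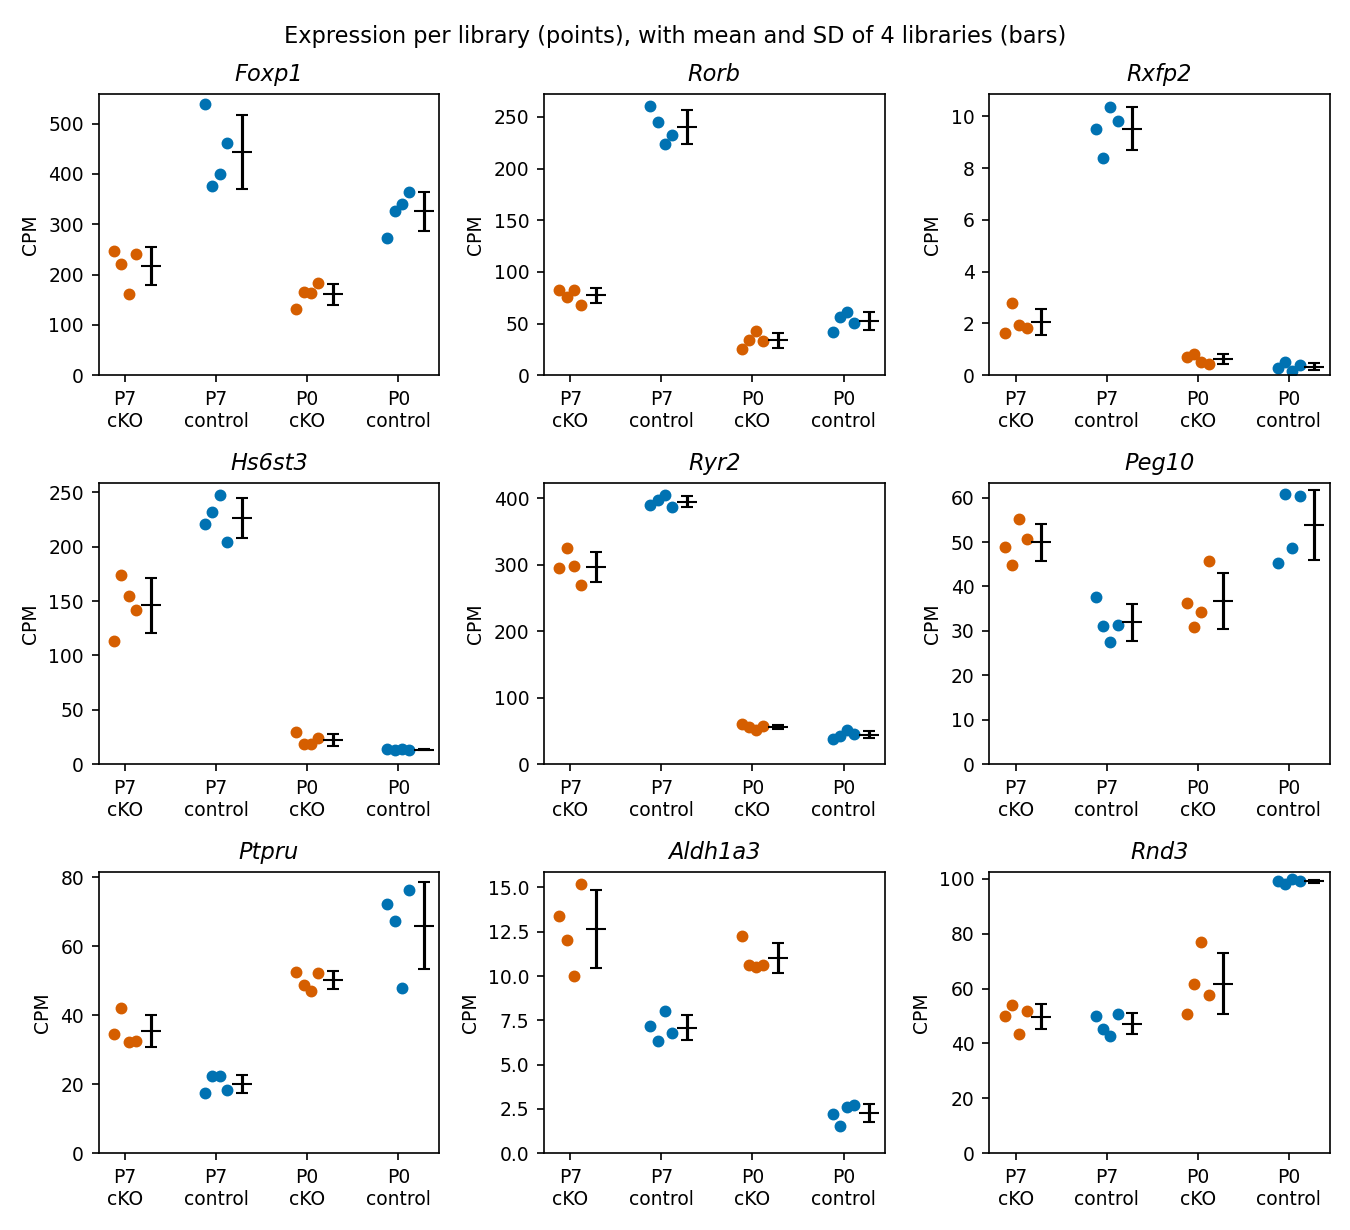
CPM per library of Foxp1 and 8 genes with a called interaction, as points, with the mean and SD of the 4 libraries of each group as bars; the 4 groups run along the horizontal axis and each panel has its own vertical axis from 0. Rorb and Rxfp2 are far lower in P7 cKO than in P7 control libraries, Hs6st3, Ryr2, Peg10 and Ptpru change direction between the ages, and Aldh1a3 and Rnd3 differ more between genotypes at P0.

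The heparan sulfate enzymes Hs6st3 and Hs3st4 and the sorting receptor Sorcs1 were called lower. Hs6st3 (chromosome 14, 119138341 to 119869815, plus strand), a sulfotransferase that modifies heparan sulfate chains, had 114, 174, 155 and 142 CPM in P7 cKO, 221, 232, 247 and 204 CPM in P7 control, 29.9, 18.2, 18.1 and 23.7 CPM in P0 cKO and 14.2, 12.7, 13.9 and 12.9 CPM in P0 control libraries. All cKO libraries were below control at P7 and all were above it at P0. It fell by 0.64 at P7 and rose by 0.68 at P0, an interaction of -1.32 (SE 0.19, limma adjusted p = 0.0042) that was called in all 30 alternatives. Hs3st4, another heparan sulfate sulfotransferase, had 108, 134, 125 and 115 CPM in P7 cKO, 174, 186, 196 and 157 CPM in P7 control, 107, 138, 113 and 104 CPM in P0 cKO and 101, 117, 114 and 118 CPM in P0 control libraries. Its genotypes overlapped at P0 and did not at P7, and its interaction was -0.59 (SE 0.13, limma adjusted p = 0.042, lost in 9 of 16 fits without 1 library). Sorcs1, a sorting receptor of neurons, had 138, 152, 147 and 118 CPM in P7 cKO, 275, 258, 247 and 239.8 CPM in P7 control, 46.6, 59.3, 60.5 and 49.6 CPM in P0 cKO and 33.3, 44.3, 40.95 and 59.9 CPM in P0 control libraries. It fell by 0.88 at P7, was 0.29 higher at P0 (limma adjusted p = 0.17) and had an interaction of -1.17 (SE 0.18, limma adjusted p = 0.0047), called in all 30 alternatives.

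Among 24 tested cadherins and protocadherins 2 were called higher and 2 lower, beside 0.305% and 0.446% of all tested genes. The median interaction of the list was 0.07 (0.03 without P0 control 2, 0.13 without P0 controls 2 and 6). Pcdh17 had 283, 277, 299 and 284 CPM in P7 cKO, 249, 222, 246 and 269.9 CPM in P7 control, 76.2, 80.8, 90.1 and 92.7 CPM in P0 cKO and 99.0, 130.1, 116 and 114 CPM in P0 control libraries. The genotypes did not overlap at either age and changed places between them. The effects were 0.21 at P7 (limma adjusted p = 0.36) and -0.43 at P0, the interaction 0.64 (SE 0.12, limma adjusted p = 0.013). Pcdh8 had an interaction of 0.79 with a P7 effect of 0.71, and its P0 cKO libraries ran from 92.9 to 115 CPM against 84.8 to 139.7 CPM in P0 control libraries. Cdh20 had -0.88, with 46.3 to 62.6 CPM in P7 cKO, 57.9 to 63.3 CPM in P7 control, 23.2 to 30.0 CPM in P0 cKO and 13.4 to 22.6 CPM in P0 control libraries. Pcdh7 had -0.77, with all P7 cKO libraries (492 to 585 CPM) below P7 control (638 to 697 CPM) and overlap at P0. The calls of Pcdh8, Pcdh7 and Cdh20 were lost in 11, 14 and 5 of the 16 fits without 1 library, and those of Pcdh8 (0.56) and Pcdh7 (-0.51) also without P0 controls 2 and 6. Exons on the other strand cover 21.1% of those of Pcdh7. Outside the list and chosen after its values were seen, the giant cadherin gene Fat3 had 305, 304, 261 and 319 CPM in P7 cKO, 382, 349, 362 and 358 CPM in P7 control, 244, 204, 219 and 227 CPM in P0 cKO and 176, 164, 183 and 180.2 CPM in P0 control libraries. It fell at P7 by 0.29 and rose at P0 by 0.34, without overlap at either age, an interaction of -0.63 (SE 0.10, limma adjusted p = 0.0049).

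Ptpru, a receptor-type tyrosine phosphatase, moved the other way. It had 34.7, 42.1, 32.3 and 32.6 CPM in P7 cKO, 17.4, 22.4, 22.3 and 18.3 CPM in P7 control, 52.6, 48.8, 47.2 and 52.4 CPM in P0 cKO and 72.4, 67.5, 47.8 and 76.3 CPM in P0 control libraries. All P7 cKO libraries lay above control, and at P0 only control 5 lay within the cKO range. It rose by 0.79 at P7 and showed -0.37 at P0 (limma adjusted p = 0.088), an interaction of 1.15 (SE 0.18, limma adjusted p = 0.0047). Itgb3, an integrin beta subunit, had 3.90 to 4.83 CPM in P7 cKO, 9.06 to 11.2 CPM in P7 control, 1.11 to 2.10 CPM in P0 cKO and 0.831 to 2.17 CPM in P0 control libraries. It fell at P7 alone, with an interaction of -1.22 (SE 0.24, limma adjusted p = 0.018) that was lost with a pseudocount of 0.1 (adjusted p = 0.080), with no filter, in edgeR and without P0 cKO 3 or P7 control 46. Flrt3, an adhesion and guidance gene chosen after its values were seen, had 98.1, 98.6, 95.6 and 106 CPM in P7 cKO and 62.4, 54.99, 65.4 and 56.7 CPM in P7 control libraries and was listed at 0 in all 8 P0 libraries. Its called interaction of 0.73 is therefore the P7 difference alone, and neither edgeR nor DESeq2 called it. Rnd3, a small GTPase involved in neuronal migration and also chosen after its values were seen, had 49.9, 53.9, 43.5 and 51.7 CPM in P7 cKO, 50.1, 45.3, 42.6 and 50.7 CPM in P7 control, 50.8, 61.6, 77.0 and 57.7 CPM in P0 cKO and 99.3, 98.2, 99.9 and 99.1 CPM in P0 control libraries. It fell by 0.69 at P0 with no overlap, was 0.07 higher at P7 (limma adjusted p = 0.98) and had an interaction of 0.76 (SE 0.15, limma adjusted p = 0.015).

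Nefm, the medium neurofilament subunit, had 64.8, 92.3, 91.1 and 96.9 CPM in P7 cKO, 142, 153, 167 and 164 CPM in P7 control, 146, 88.2, 70.3 and 144 CPM in P0 cKO and 87.3, 71.3, 76.5 and 76.5 CPM in P0 control libraries. The P7 genotypes were separate, and at P0 cKO libraries 3 and 8 were high while 4 and 7 were close to control. It fell by 0.87 at P7 and was 0.46 higher at P0 (limma adjusted p = 0.11), an interaction of -1.32 (SE 0.25, limma adjusted p = 0.013), which missed the threshold with no filter on low values (adjusted p = 0.0504), and exons on the other strand cover 19.2% of its exons. Of 23 tested neurofilament and axon genes Nefm was the called one, 19 had a negative interaction and the median was -0.13 (-0.07 without P0 control 1, -0.20 without P0 control 6). Other members had values that were not called: the microtubule-associated gene Map1a had -0.59 (limma adjusted p = 0.073), and the spectrin adaptor gene Ank2 had -0.29 (limma adjusted p = 0.12). Nefl, the light neurofilament subunit, was listed at 0 in all P0 libraries, and its P7 difference of -0.58 is all that its interaction holds.

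Ryr2 (chromosome 13, 11553102 to 12106945, minus strand), a calcium release channel of the endoplasmic reticulum, had 294, 326, 298 and 269.6 CPM in P7 cKO, 389.7, 397, 405 and 387 CPM in P7 control, 60.3, 55.4, 51.6 and 56.7 CPM in P0 cKO and 38.2, 41.97, 51.1 and 44.995 CPM in P0 control libraries. The cKO libraries were all below control at P7 and all above it at P0. It fell by 0.41 at P7 and rose by 0.34 at P0, an interaction of -0.76 (SE 0.12, limma adjusted p = 0.0044). Kcnip4, a partner of voltage-gated potassium channels, had 964, 1228, 1125 and 1028 CPM in P7 cKO, 1204, 1294, 1397 and 1188 CPM in P7 control, 18.1, 24.4, 16.7 and 20.8 CPM in P0 cKO and 13.1, 11.8, 14.1 and 14.9 CPM in P0 control libraries. Its genotypes overlapped at P7 and were separate at P0, and the interaction of -0.76 (SE 0.15, limma adjusted p = 0.017) was lost without P7 control 46 (adjusted p = 0.053). It was the called gene among 52 tested potassium channel genes, 36 of which had a negative interaction, with a median of -0.10 (-0.15 without P0 cKO 4). Of 30 tested sodium, calcium and HCN channel genes none was called. An unadjusted p under 0.05 was reached by 10 of the 30, all with a negative sign, beside 15.6% of all tested genes, and the median was -0.17 (-0.09 without P0 control 1). Examples were the sodium channel gene Scn8a at -0.30 and the calcium channel accessory gene Cacng2 at -0.49, both at a limma adjusted p of 0.12.

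Grin1, the obligatory subunit of NMDA receptors, had 159, 173, 171 and 163 CPM in P7 cKO, 175, 193, 192 and 178 CPM in P7 control, 129, 120.2, 133 and 107 CPM in P0 cKO and 87.0, 88.1, 99.3 and 89.9 CPM in P0 control libraries. Both ages were without overlap and in opposite order, with effects of -0.15 at P7 (limma adjusted p = 0.59) and 0.42 at P0 and an interaction of -0.56 (SE 0.10, limma adjusted p = 0.013). Other exons on the opposite strand cover 13.5% of its own. Grik1, a kainate receptor subunit, had 195, 202, 315 and 203 CPM in P7 cKO, 233, 281, 225 and 217 CPM in P7 control, 57.3, 55.9, 45.9 and 47.96 CPM in P0 cKO and 30.2, 25.0, 31.9 and 33.5 CPM in P0 control libraries. It rose by 0.76 at P0, P7 cKO 44 stood far above the rest of its group, and the interaction of -0.85 (SE 0.19, limma adjusted p = 0.036) was lost in 9 of 16 fits without 1 library. These 2 were the called members among 16 tested ionotropic glutamate receptor genes, beside 0.446% of all tested genes called lower. The median of that list was -0.16, which was -0.04 without P0 control 2 and -0.10 without P0 controls 2 and 6. Sv2b, a synaptic vesicle glycoprotein, had 303, 317, 337 and 313 CPM in P7 cKO, 302, 372, 349 and 323 CPM in P7 control, 95.3, 85.4, 84.2 and 88.1 CPM in P0 cKO and 36.9, 41.7, 62.7 and 61.8 CPM in P0 control libraries. It rose by 0.82 at P0 and overlapped at P7, an interaction of -0.90 (SE 0.18, limma adjusted p = 0.018, lost in 4 of 16 fits without 1 library). Sv2b and Cplx3 were the called members of 31 synaptic vesicle genes, beside 0.446% of all tested genes called lower. The median of those 31 was -0.13, which was -0.05 without P0 control 1. None of 30 postsynaptic and adhesion genes was called (median -0.01). An unadjusted p under 0.05 was reached by 5 of the 30, beside 15.6% of all tested genes. Of 16 GABA and glycine receptor genes none was called, and 12 had a negative interaction. Of the 16, 7 with a negative and 1 with a positive interaction reached an unadjusted p under 0.05, beside 15.6% of all tested genes. The median interaction of the 16 receptor genes was -0.28. Their median effect was -0.02 at P7 and 0.26 at P0, and Gabrg1, a GABA-A receptor subunit, came nearest to a call at -0.70 (limma adjusted p = 0.055).

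**Figure D3:**
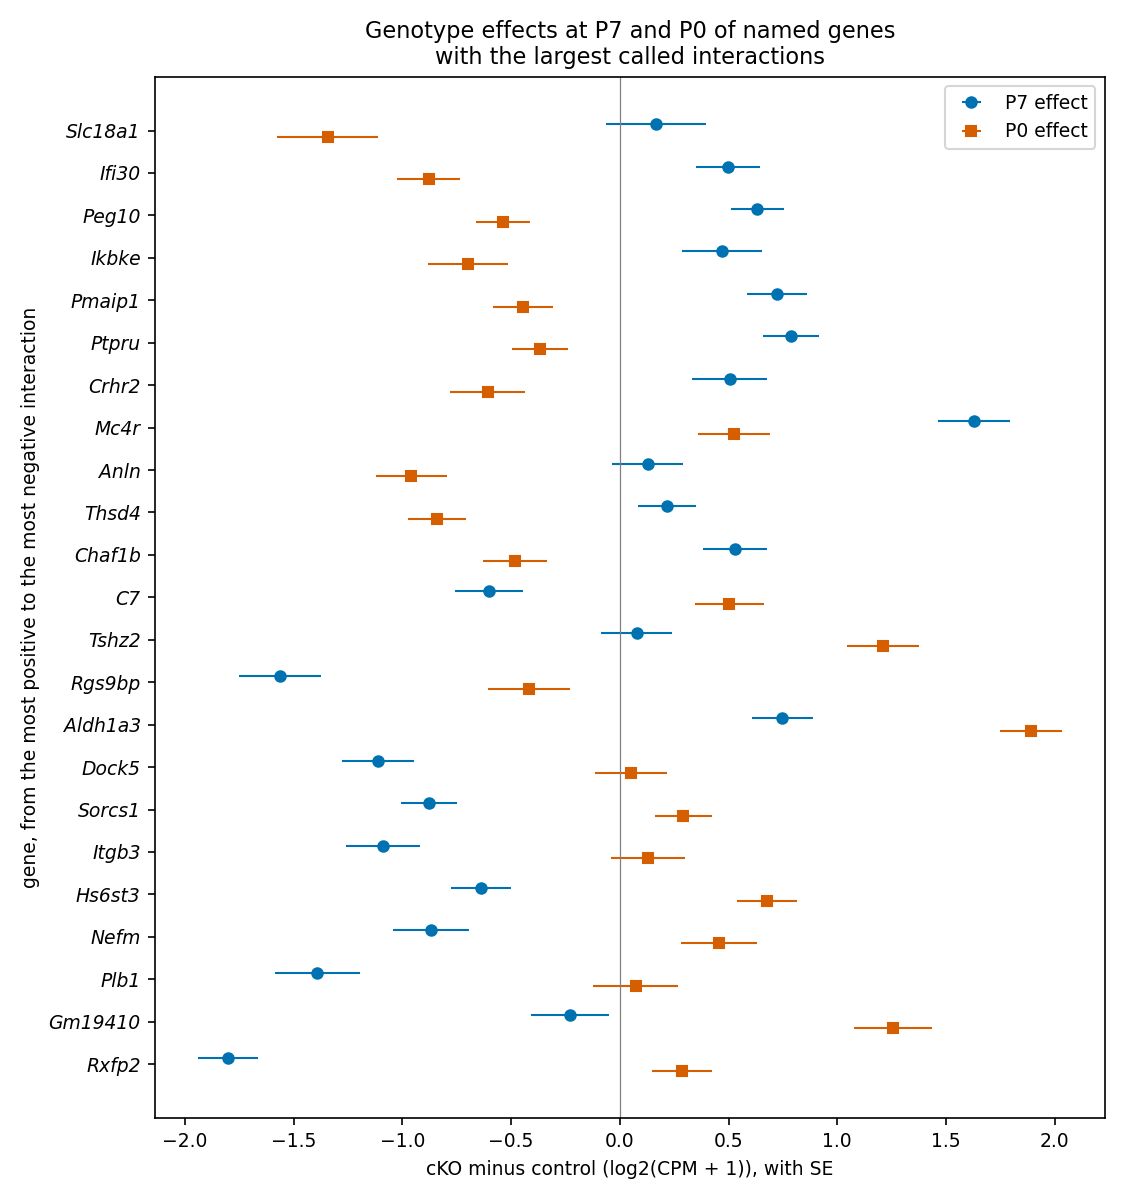
Genotype effects (cKO minus control, log2(CPM + 1), horizontal axis) at P7 (circles) and P0 (squares) of named genes with the highest and the lowest called interactions, with SE as bars. In Mc4r, Aldh1a3 and Rgs9bp both effects have 1 sign and differ in size, whereas in Rxfp2, Hs6st3, Peg10 and Ifi30 they lie on opposite sides of 0.

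Progenitor and cell-division genes had mostly positive interactions. Pax6, a transcription factor of radial glia, had 19.8, 19.1, 14.3 and 16.3 CPM in P7 cKO, 14.2, 11.5, 11.7 and 13.1 CPM in P7 control, 48.4, 50.0, 46.7 and 44.3 CPM in P0 cKO and 74.6, 75.9, 53.6 and 65.0 CPM in P0 control libraries. The genotypes did not overlap at either age and were in opposite order. It fell by 0.49 at P0 and was 0.43 higher at P7 (limma adjusted p = 0.10), an interaction of 0.91 (SE 0.17, limma adjusted p = 0.013), called in all 30 alternatives. Pax6 was the called gene among 17 tested radial glia genes (median 0.16, 12 positive), and the median was 0.35 in edgeR and 0.29 without P0 cKO 7. Values of members that were not called were 0.44 for the intermediate filament gene Vim and 0.65 for the Hedgehog pathway factor Gli3 (limma adjusted p = 0.098 and 0.099). Sox11, a transcription factor of newborn neurons, had 548, 517, 503 and 606 CPM in P7 cKO, 437, 346, 385 and 459.9 CPM in P7 control, 1103, 1140.0, 1181 and 1181 CPM in P0 cKO and 1271, 1469.5, 1265 and 1294 CPM in P0 control libraries. It too was without overlap at both ages. The effects were 0.42 at P7 and -0.20 at P0 (limma adjusted p = 0.14), the interaction 0.62 (SE 0.12, limma adjusted p = 0.013), and it was the called gene of 13 tested in the list of intermediate progenitors and new neurons (median 0.42, 10 positive).

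In the cell cycle list 23 of 26 tested genes had a positive interaction, with a median of 0.31 beside 0.02 over all tested genes. An unadjusted p under 0.05 was reached by 10 of the 26, beside 15.6% of all tested genes. Only Aurka, a mitotic kinase, was called, at 0.997 (SE 0.21, limma adjusted p = 0.032). It had 1.51 to 2.67 CPM in P7 cKO, 0.899 to 1.71 CPM in P7 control, 7.63 to 10.9 CPM in P0 cKO and 12.2 to 15.8 CPM in P0 control libraries, and its call was lost in 7 of 16 fits without 1 library. The median effect of the list was 0.04 at P7 and -0.24 at P0, and its 26 genes summed to 519.9 to 608 CPM in P7 cKO, 483 to 557 CPM in P7 control, 797 to 902 CPM in P0 cKO and 881 to 1183 CPM in P0 control libraries. Values without a call were 0.73 for the replication licensing gene Mcm2 and 0.55 for the proliferation marker Mki67 (limma adjusted p = 0.065 and 0.11). Outside the list, Chaf1b, a chromatin assembly subunit, had 2.77 to 4.97 CPM in P7 cKO, 1.86 to 2.53 CPM in P7 control, 19.5 to 27.9 CPM in P0 cKO and 28.4 to 35.5 CPM in P0 control libraries, an interaction of 1.01. Anln, an actin-binding protein of the dividing cell, had 8.67 to 11.6 CPM in P7 cKO, 8.91 to 10.5 CPM in P7 control, 10.7 to 13.2 CPM in P0 cKO and 15.8 to 33.1 CPM in P0 control libraries, an interaction of 1.09 that came from a fall of 0.96 at P0. The Chaf1b call was lost in 6 and the Anln call in 9 of 16 fits without 1 library, and both were lost with no filter. Without P0 controls 2 and 6 the calls of Aurka (0.95), Chaf1b (0.89) and Anln (0.74) were lost, while the cell cycle median was 0.47 with 25 positive and 2 called. In bulk tissue fewer cells of a type and less RNA per cell cannot be told apart.

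Interactions of the same sign were measured for striatal markers. All 19 tested members had a positive interaction, with a median of 0.81 (P7 effect 0.33, P0 effect -0.36), but none was called. An unadjusted p under 0.05 was reached by 8 of the 19, beside 15.6% of all tested genes. The sum of the striatal markers was 738 to 1176 CPM in P7 cKO, 661 to 1306 CPM in P7 control, 728 to 872 CPM in P0 cKO and 837 to 1159 CPM in P0 control libraries. The groups thus overlapped at both ages. Among the defining markers Drd1 and Ppp1r1b were detected in every library, Ppp1r1b at 2.77 to 24.1 CPM in P7 cKO, 3.48 to 20.2 CPM in P7 control, 34.1 to 61.7 CPM in P0 cKO and 62.9 to 104 CPM in P0 control libraries. P7 control 43 was the highest of its group for Ppp1r1b and for the opioid precursor gene Penk, at 27.1 CPM against 4.57 to 6.15 CPM in the other P7 controls. The median of the list was 0.73 to 1.31 over the fits without 1 library, and without P0 controls 2 and 6 it was 1.16, with 2 members called. The part of striatal tissue in the interactions above was not tested.

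**Figure D4:**
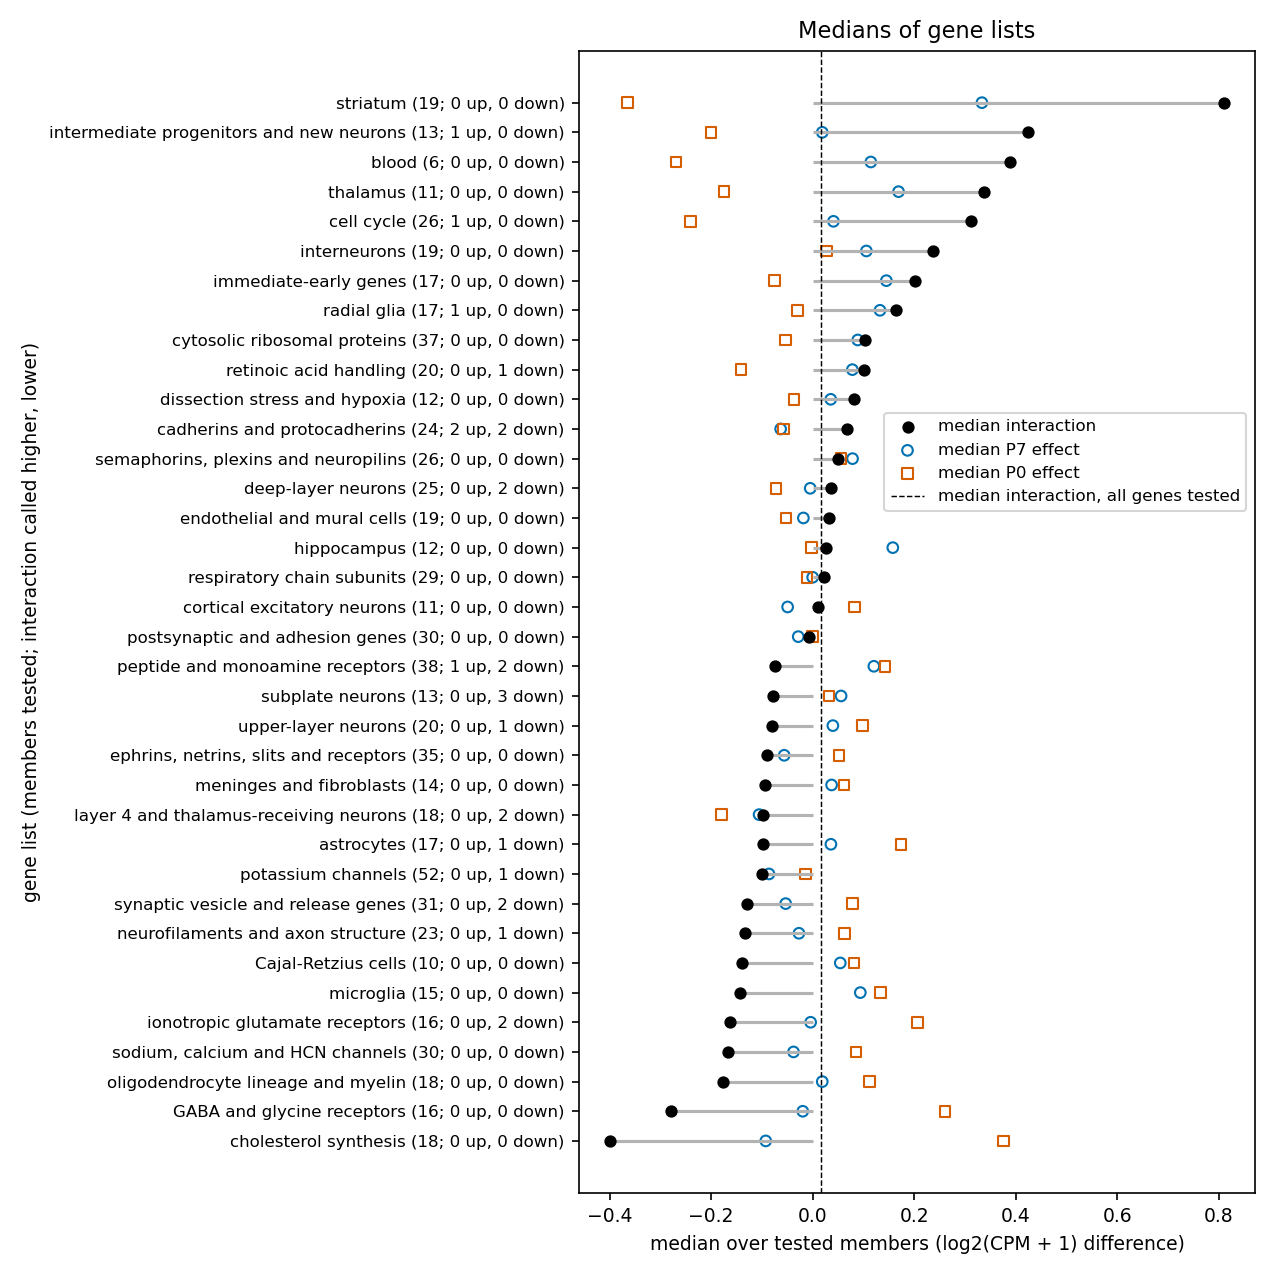
Median over the tested members of each of 36 gene lists of the interaction (filled circles), the P7 effect (open circles) and the P0 effect (open squares), in log2(CPM + 1), with the number tested and called beside each name and a dashed line at the median interaction of all tested genes (0.02). The most positive medians are those of striatum (0.81), intermediate progenitors and new neurons (0.42), blood (0.39), thalamus (0.34) and cell cycle (0.31). Those of cholesterol synthesis (-0.40) and GABA and glycine receptors (-0.28) are the most negative.

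Peg10, Plagl1 and Rcn1 were higher in cKO cortex relative to control at P7 than at P0. Peg10 (chromosome 6, 4747306 to 4760517, plus strand), an imprinted gene derived from a retrotransposon, had 48.8, 44.9, 55.1 and 50.7 CPM in P7 cKO, 37.6, 31.2, 27.5 and 31.4 CPM in P7 control, 36.2, 30.9, 34.3 and 45.8 CPM in P0 cKO and 45.3, 60.8, 48.7 and 60.3 CPM in P0 control libraries. The P7 groups were separate, and at P0 the highest cKO library just exceeded the lowest control. It rose by 0.63 at P7 and fell by 0.54 at P0, an interaction of 1.17 (SE 0.18, limma adjusted p = 0.0042). Plagl1, an imprinted zinc-finger transcription factor gene chosen after its values were seen, had 80.0, 82.6, 81.8 and 85.3 CPM in P7 cKO, 47.1, 52.5, 49.5 and 46.5 CPM in P7 control, 78.6, 67.0, 79.8 and 65.9 CPM in P0 cKO and 86.2, 90.5, 69.4 and 77.1 CPM in P0 control libraries. It rose at P7 with a wide gap and overlapped at P0, an interaction of 0.89 (SE 0.13, limma adjusted p = 0.0042). Rcn1, a calcium-binding protein of the endoplasmic reticulum, had 76.4, 75.9, 71.7 and 72.6 CPM in P7 cKO, 51.2, 45.97, 49.5 and 45.8 CPM in P7 control, 30.0, 29.5, 30.4 and 32.4 CPM in P0 cKO and 34.8, 33.7, 37.6 and 47.8 CPM in P0 control libraries. Its groups did not overlap at either age, and it was higher in cKO at P7 (0.62) and lower at P0 (-0.31, limma adjusted p = 0.055), an interaction of 0.92 (SE 0.13, limma adjusted p = 0.0042). Peg10, Plagl1 and Rcn1 were called in every one of 30 alternatives.

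Aldh1a3 (chromosome 7, 66390890 to 66427517, minus strand), an enzyme that makes retinoic acid, rose in cKO cortex at both ages and rose more at P0. It had 13.4, 12.01, 10.005 and 15.2 CPM in P7 cKO, 7.16, 6.35, 8.02 and 6.78 CPM in P7 control, 12.3, 10.6, 10.5 and 10.6 CPM in P0 cKO and 2.19, 1.55, 2.60 and 2.73 CPM in P0 control libraries. The control level was lowest at P0, with no overlap of genotypes at either age. The effects were 0.75 at P7 and 1.89 at P0, the interaction -1.14 (SE 0.20, limma adjusted p = 0.0077). It was the called gene of 20 tested in the retinoic acid list (median 0.10, with 0.04 without P7 cKO 41 and 0.19 without P0 control 6). All 18 tested cholesterol synthesis genes had a negative interaction, none of them called. An unadjusted p under 0.05 was reached by 6 of the 18, beside 15.6% of all tested genes. The median of these cholesterol genes was -0.40, which combined -0.09 at P7 and 0.38 at P0. Their sum was 2597 to 2773 CPM in P7 cKO, 2794 to 2910 CPM in P7 control, 1372 to 2466 CPM in P0 cKO and 1191 to 1903 CPM in P0 control libraries. The P7 cKO sums lay just below P7 control without overlap, and the P0 sums spread widely and overlapped. Squalene epoxidase, Sqle, had -0.80 (limma adjusted p = 0.073), and lanosterol demethylase, Cyp51, had -0.63 (limma adjusted p = 0.098). Over the fits without 1 library the median of the list ran from -0.59 without P0 cKO 8 to -0.29 without P0 cKO 4.

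Ifi30 and Pmaip1 were called higher. Ifi30, a lysosomal thiol reductase of antigen processing, had 3.65, 3.86, 3.66 and 3.75 CPM in P7 cKO, 2.25, 2.53, 2.43 and 2.21 CPM in P7 control, 11.1, 11.1, 13.6 and 13.7 CPM in P0 cKO and 17.0, 29.7, 20.8 and 28.7 CPM in P0 control libraries. No group overlapped at either age, and the order was reversed. It fell by 0.88 at P0 and was 0.50 higher at P7 (limma adjusted p = 0.13), an interaction of 1.38 (SE 0.21, limma adjusted p = 0.0042). Pmaip1, which encodes the pro-apoptotic protein Noxa, had 4.30, 4.37, 4.15 and 4.36 CPM in P7 cKO, 2.33, 1.78, 2.35 and 2.42 CPM in P7 control, 2.10, 2.93, 2.71 and 3.65 CPM in P0 cKO and 3.89, 5.15, 3.37 and 4.51 CPM in P0 control libraries. It rose by 0.72 at P7, and at P0 the cKO libraries lay mostly below control with some overlap. The interaction of 1.17 (SE 0.20, limma adjusted p = 0.0066) thus did not lie at P7 alone. Less stable calls were Ikbke, a kinase of innate immune signalling, at 1.17, and C7, a complement component, at -1.10. The Ikbke call was lost in 13 of 16 fits without 1 library and, at 0.82, without P0 controls 2 and 6 (adjusted p up to 0.098). C7 had 2.02 to 3.46 CPM in P7 cKO, 3.83 to 5.997 CPM in P7 control, 0.664 to 1.11 CPM in P0 cKO and 0.0554 to 0.439 CPM in P0 control libraries, and its call was lost without P0 cKO 3 or P7 control 47 (adjusted p up to 0.063). None of the 15 tested microglia markers was called (median -0.14, -0.05 without P7 cKO 48). An unadjusted p under 0.05 was reached by 4 of the 15, beside 15.6% of all tested genes.

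Gm19410, Plb1, Dock5, Rgs9bp and Hsd11b1 were called lower. Gm19410 (chromosome 8, 35765790 to 35818047, plus strand), a gene model without a known role, had 102, 106, 83.7 and 113 CPM in P7 cKO, 134, 117, 109 and 114 CPM in P7 control, 15.4, 18.9, 16.7 and 15.2 CPM in P0 cKO and 3.56, 6.42, 6.30 and 10.5 CPM in P0 control libraries. It rose by 1.26 at P0 without overlap and was -0.23 at P7 (limma adjusted p = 0.88), an interaction of -1.48 (SE 0.25, limma adjusted p = 0.0072). Plb1, a phospholipase, had 0.732 to 3.13 CPM in P7 cKO, 5.59 to 7.06 CPM in P7 control, 0.553 to 1.27 CPM in P0 cKO and 0.668 to 1.11 CPM in P0 control libraries, an interaction of -1.46 that lay at P7. Dock5, an activator of the GTPase Rac, had 8.42 to 10.2 CPM in P7 cKO, 19.9 to 22.9 CPM in P7 control, 2.27 to 4.14 CPM in P0 cKO and 1.94 to 4.06 CPM in P0 control libraries, an interaction of -1.16 that likewise lay at P7. Rgs9bp, an anchor protein of the G protein regulator Rgs9, fell at P7 (1.17 to 2.03 CPM in P7 cKO against 4.65 to 8.79 CPM in P7 control) and had 3.10 to 5.20 CPM in P0 cKO against 5.03 to 8.31 CPM in P0 control libraries, an interaction of -1.14. Hsd11b1, the enzyme that regenerates active glucocorticoids and a gene chosen after its values were seen, had 4.37 to 4.87 CPM in P7 cKO and 7.00 to 9.56 CPM in P7 control libraries and was listed at 0 in all P0 libraries, so that its interaction of -0.80 is the P7 difference alone. The Hsd11b1 call was lost in 9 of 27 alternatives, among them a pseudocount of 0.1, edgeR, DESeq2 and 6 fits without 1 library. Plb1 lost its call with a pseudocount of 0.1 and in edgeR (adjusted p up to 0.064), Dock5 in 4 and Rgs9bp in 10 of the 16 fits without 1 library.

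On the positive side, Slc18a1, a vesicular monoamine transporter, had the highest interaction at 1.51 (SE 0.33, limma adjusted p = 0.033), but on few reads. Its level was 0.196, 0.588, 0.569 and 0.203 CPM in P7 cKO, 0.4997, 0.137, 0.162 and 0.138 CPM in P7 control, 0.387, 0.664, 0.443 and 1.71 CPM in P0 cKO and 2.63, 6.20, 2.10 and 3.62 CPM in P0 control libraries. P7 values were close to the 3-read limit, so the contrast rests on the fall of 1.34 at P0, and the call was lost in 10 of 16 fits without 1 library. Thsd4, a protein of the extracellular matrix, had 21.1 to 32.0 CPM in P7 cKO, 19.7 to 25.2 CPM in P7 control, 6.92 to 8.58 CPM in P0 cKO and 12.3 to 17.4 CPM in P0 control libraries. It fell by 0.84 at P0 and had an interaction of 1.06 (SE 0.19, limma adjusted p = 0.0097), called in all 30 alternatives. The water channel gene Aqp4, an astrocyte marker, had 312 to 349 CPM in P7 cKO, 349.8 to 387 CPM in P7 control, 14.7 to 18.8 CPM in P0 cKO and 5.65 to 12.2 CPM in P0 control libraries. It rose by 0.85 at P0 and had an interaction of -1.02 (SE 0.21, limma adjusted p = 0.029), lost in 9 of 16 fits without 1 library, as the called gene among 17 astrocyte markers (median -0.10, with -0.04 without P7 cKO 41 and -0.18 without P0 controls 2 and 6).

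The count of calls depended on single libraries. Leaving out 1 library at a time gave 45 to 361 called genes, with 45 without P0 cKO 3, 47 without P7 control 46 and 361 without P0 control 5. Without P0 control 5 all 101 genes were among the calls, and 51.0% of the calls were higher. Of the 101 genes 39 were called in every one of the 16 fits that tested them, 36 under every alternative that tested them, and no sign was reversed. Those 36 include Rxfp2, Rorb, Hs6st3, Sorcs1, Aldh1a3, Ryr2, Grin1, Fat3, Peg10, Ptpru, Ifi30, Pmaip1, Plagl1, Rcn1, Pax6, Sox11, Pcdh17, Thsd4 and Rnd3.

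**Figure D5:**
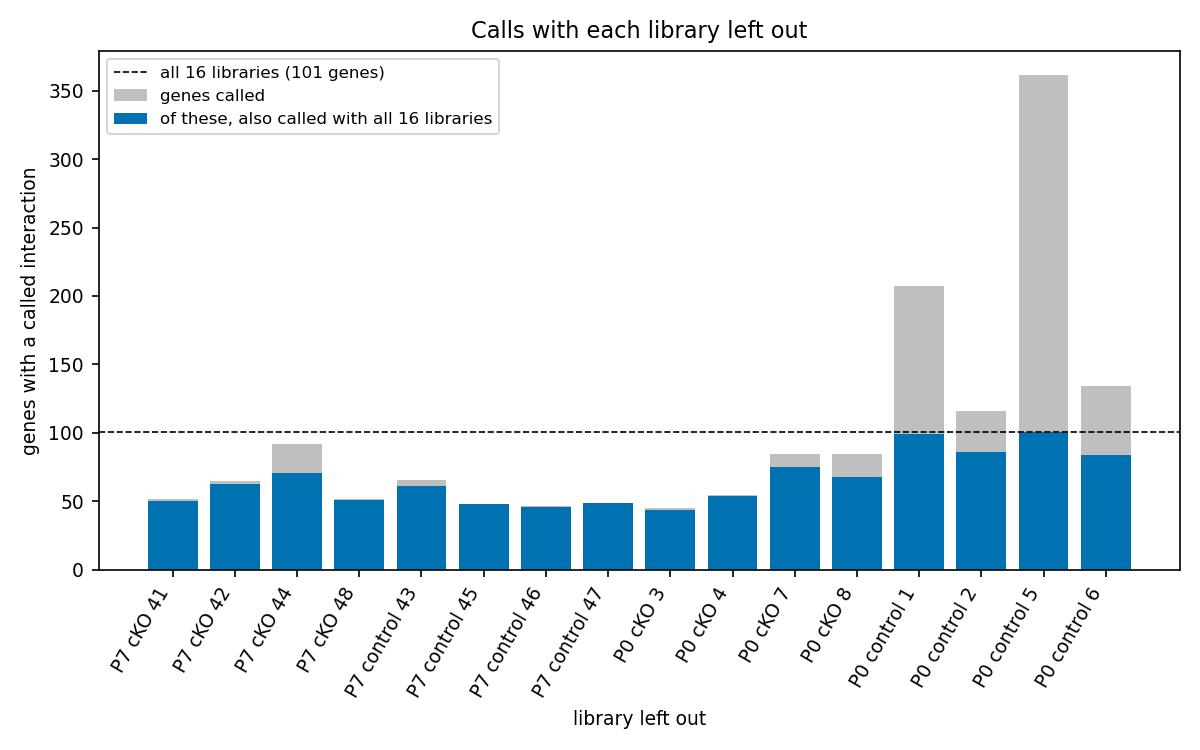
Number of genes with a called interaction (vertical axis) when the library named on the horizontal axis is left out, with the genes also called with all 16 libraries in blue and the others in grey. The bars run from 45 without P0 cKO 3 to 361 without P0 control 5, and the dashed line marks the 101 genes of all libraries.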

How the data were processed

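The deposited table gives CPM values, read counts that the authors divided by each library total. Per the submitters' processing notes STAR, HTSeq and edgeR and the builds mm10 and GRCm38 were used, with versions and settings not given in the sources used here. Genes of chromosomes X and Y are not in the table. Within 0.01 read, 100% of values were whole reads, so counts were recovered for edgeR 4.0.16 and DESeq2 1.42.0, used as alternatives. Tests ran in limma 3.58.1 (R 4.3.3) after a log2(CPM + 1) transform, with 4 group means, a trend of spread with abundance and Benjamini-Hochberg adjustment over 13444 genes. The added 1 CPM makes differences of low genes smaller. Named genes are Foxp1, the 12 highest and 12 lowest called interactions, the 6 opposed genes with the smallest p and up to 4 genes with the smallest p per list described, and a few genes that meet these rules are not reported here. The contrast, the 36 gene lists and these rules were chosen with earlier results of these data known. Positions come from GENCODE M21, by symbol for 20374 genes and older symbol for 357, with 110 unmatched. On simulated data 85 of 100 interactions of 1 and 100 of 100 of 2 were recovered, with 6 false calls among 13444 genes. These figures hold for the simulated counts alone. Whether they carry over to low-abundance genes was not tested. Nor was it tested for the real libraries, where leaving out 1 moved the count of calls between 45 and 361.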

Additional observations from a re-analysis of the deposited data

Results flagged for a closer look

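The named genes below had a genotype effect that differed between P7 and P0 by the limma test of the interaction itself (adjusted p under 0.05), with 4 libraries in each group. The log2 interaction was -2.08 in Rxfp2, -1.48 in Gm19410, -1.46 in Plb1, -1.32 in Nefm, -1.32 in Hs6st3, -1.22 in Itgb3, -1.17 in Sorcs1, -1.16 in Dock5, -1.14 in Aldh1a3, -1.14 in Rgs9bp, -1.13 in Tshz2, -1.10 in C7 and -1.04 in Cplx3. It was -1.02 in Aqp4, -1.02 in Crhr1, -0.99 in Rorb, -0.90 in Sv2b, -0.88 in Cdh20, -0.85 in Grik1, -0.80 in Hsd11b1, -0.77 in Pcdh7, -0.76 in Ryr2, -0.76 in Kcnip4, -0.70 in Rora, -0.63 in Fat3, -0.59 in Hs3st4 and -0.56 in Grin1. On the positive side it was 1.51 in Slc18a1, 1.38 in Ifi30, 1.17 in Peg10, 1.17 in Ikbke, 1.17 in Pmaip1, 1.15 in Ptpru, 1.11 in Crhr2, 1.10 in Mc4r, 1.09 in Anln, 1.06 in Thsd4, 1.01 in Chaf1b, 0.997 in Aurka, 0.92 in Rcn1, 0.91 in Pax6, 0.89 in Plagl1, 0.79 in Pcdh8, 0.76 in Rnd3, 0.73 in Flrt3, 0.64 in Pcdh17 and 0.62 in Sox11.

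In 14 of 310 groups of 4 libraries examined, 1 library lay far from the other 3, and about 1 in 20 would by chance. Of the genes with a called interaction, Aldh1a3 in P0 cKO 3 was at 12.3 CPM against 10.5 to 10.6 in the other 3. C7 in P0 cKO 3 was at 1.11 CPM against 0.664 to 0.720. Grik1 in P7 cKO 44 was at 315 CPM against 195 to 203. Pcdh8 in P0 cKO 7 was at 115 CPM against 92.9 to 95.9. Slc18a1 in P7 control 43 was at 0.4997 CPM against 0.137 to 0.162, and Hsd11b1 in the same library at 7.00 CPM against 9.13 to 9.56. Pmaip1 in P7 control 45 was at 1.78 CPM against 2.33 to 2.42, Pcdh7 in P7 control 47 at 697 CPM against 638 to 646, and Sox11 in P0 control 2 at 1469.5 CPM against 1265 to 1294. Of the genes without a call, Penk in P7 control 43 was at 27.1 CPM against 4.57 to 6.15, Grin3a in P7 cKO 44 at 312 CPM against 235 to 244, Kcnh5 in P0 control 6 at 6.96 CPM against 9.58 to 9.82, Sp8 in P0 control 5 at 14.3 CPM against 11.7 to 11.97 and Zfp503 in P0 control 2 at 0.941 CPM against 4.61 to 5.23.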

How the results depend on the processing

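The 101 interaction calls became 54 with no filter, 194 with weights per library, 291 in DESeq2, 175 without P0 control libraries 2 and 6 and 241 at an adjusted p under 0.1. The other settings with all libraries gave 71 to 118. With 1 library left out the count ran from 45 to 361. The 175 P7 calls became 403 with weights per age, 588 with weights per library and 359 without P0 controls 2 and 6, and 107 to 240 with 1 library left out. The 794 P0 calls became 505 with no filter, 282 with weights per age, 300 with weights per library, 1386 in DESeq2 and 319 without P0 controls 2 and 6, and 152 to 1925 with 1 library left out. The cause was not tested. The Foxp1 interaction was not called anywhere, and its sign changed with weights per library (0.11) and between fits with 1 library left out (-0.11 to 0.12). Of the 101 genes, 65 lost their call under at least 1 alternative. The labels name no litter, and the replicate numbers differ in every library, so no pairs could be formed. Depth limits genes such as Slc18a1 at P7, and 10 called genes had a mean under 1 CPM in P0 control cortex.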

Other observations

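Lists not described above held no called interaction. The median was 0.24 for 19 interneuron genes (P7 effect 0.11, P0 effect 0.03), 0.34 for 11 thalamus markers (0.17 at P7, -0.17 at P0), 0.39 for 6 blood genes (0.11 at P7, -0.27 at P0) and 0.20 for 17 immediate-early genes (0.15 at P7, -0.07 at P0), beside 0.02 over all tested genes. The thalamus median was 0.22 without P0 control 2 and 0.09 without P0 controls 2 and 6. Of these, 8 interneuron, 4 thalamus, 1 blood and 2 immediate-early genes had an unadjusted p under 0.05, beside 15.6% of all tested genes. Among guidance genes, 26 semaphorins, plexins and neuropilins had a median of 0.05, with 14 positive and 8 at an unadjusted p under 0.05. The 35 ephrins, netrins, slits and their receptors had a median of -0.09, with 23 negative and 7 at an unadjusted p under 0.05. Cajal-Retzius markers had a median of -0.14, oligodendrocyte genes -0.18, meningeal genes -0.09, endothelial genes 0.03, hippocampal markers 0.03, cortical excitatory markers 0.01 and the dissection stress and hypoxia list 0.08. In these 7 lists, in the same order, the tested genes numbered 10, 18, 14, 19, 12, 11 and 12. Those with an unadjusted p under 0.05 numbered 2, 4, 2, 2, 5, 3 and 4, beside 15.6% of all tested genes. Of these, the 4 oligodendrocyte and the 3 cortical excitatory genes had negative interactions. The 2 Cajal-Retzius genes had positive ones, opposite to the median of their list. Cytosolic ribosomal protein genes had a median of 0.10, which was 0.17 without P7 cKO 44, with 33 of 37 positive and 2 at an unadjusted p under 0.05, and respiratory chain genes 0.02 with 1 such gene of 29. The semaphorin, Cajal-Retzius, meningeal, endothelial, hippocampal, cortical excitatory, stress and respiratory chain medians each moved by over 1.5 times when some single library was left out.

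Of the 44 genes called at both ages, 40 changed in 1 direction and 4 in opposite directions (Fat3, Hs6st3, Peg10 and Ryr2), and 7 of the 44 also had a called interaction.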
